A study of Caenorhabditis elegans with 14 samples.

Results

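The genes described here are the Hedgehog-related and patched-related genes of *Caenorhabditis elegans*, taken as every gene whose name in either deposited table begins with grd-, grl-, wrt-, hog-, ptr- or ptc-. They numbered 46 of the 12483 genes listed in either table. Of the 12061 genes listed for wild-type worms 43 were members, as were 44 of the 12173 listed for polyQ35-YFP worms, and 41 members stood in both tables. *grl-9*, *grl-15* and *ptr-1* were listed only in polyQ35-YFP worms, and *ptr-9* and *ptr-17* only in wild-type worms. The annotation holds 84 protein-coding genes with these prefixes, and the tables listed 6 of 16 groundhog (*grd*) genes, 12 of 31 ground-like (*grl*) genes, 6 of 10 warthog (*wrt*) genes, 0 of 1 *hog* gene, 20 of 24 patched-related (*ptr*) genes and 2 of 2 patched (*ptc*) genes. Both tables had been limited by the authors to genes with a mean count of at least 2, so the other members of these families were not analysed here.

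In flies and vertebrates a secreted Hedgehog protein is cut by its own carboxyl-terminal Hog domain, receives lipid, and binds the membrane protein Patched, which releases the signal transducer Smoothened. Nematodes have no clear Hedgehog ligand of that form and no Smoothened, but they carry an expanded set of secreted relatives, the groundhog, ground-like and warthog proteins, together with a large family of membrane proteins related to Patched that bear a sterol-sensing domain. Many of these genes are used in the epidermis and other cells that lay down the cuticle and apical extracellular matrix, and loss of many patched-related genes disturbs molting. Which secreted protein binds which patched-related protein is mostly unknown.

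The samples were homogenates of whole hermaphrodite worms harvested on day 6 of adulthood, raised at one temperature on HT115 bacteria and washed each day to discard progeny. Wild-type worms (strain N2) fed bacteria with the empty RNAi vector (EV, n = 3) were compared with wild-type worms fed *anc-1* RNAi bacteria (n = 3). PolyQ35-YFP worms (strain AM140), which express a polyglutamine stretch fused to YFP in body wall muscle under the *unc-54* promoter, were compared in the same way (EV, n = 4, and *anc-1* RNAi, n = 4). ANC-1 is a giant protein that ties nuclei to actin as part of the LINC complex, a bridge across the nuclear envelope, and the study asked whether its knockdown changes gene expression in the presence and absence of an aggregating protein. The polyQ35-YFP worms are 1 transgenic line, so the strain and its transgene cannot be told apart.

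The expression of *anc-1* itself fell by 2.64 (SE 0.19) on the log2 scale in wild-type worms and by 3.24 (SE 0.25) in polyQ35-YFP worms (limma, adjusted p 2.99e-07 and 4.8e-05), with no overlap between treatments. Libraries held from 4934531 to 11563506 reads on listed genes. Defining markers of epidermis, muscle, intestine, germline, neurons, pharynx and early embryos were listed in both strains except for *end-1* and *med-1*, markers of early embryos, which were listed in neither. Replicate 4 of both polyQ35-YFP groups stood apart for the members. EV replicate 4 was the lowest of the 4 EV libraries for 28 of 44 members (63.6%, against 37.2% of all genes), and *anc-1* RNAi replicate 4 was the lowest of its group for 22 of 44 (31.3% of all genes).

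In wild-type worms, *anc-1* knockdown raised 11 of the 43 listed members and lowered none. They were the groundhog genes *grd-3*, *grd-4*, *grd-5* and *grd-10*, the ground-like genes *grl-4*, *grl-7* and *grl-16*, the warthog gene *wrt-10* and the patched-related genes *ptr-4*, *ptr-14* and *ptr-24*. Over all genes of the wild-type table, 7.50% passed the test upward and 6.13% downward (limma, adjusted p below 0.05). Whole worms were measured, so more cells of a type and more RNA per cell cannot be told apart. The secreted families held 8 of these genes among 22 listed members and the membrane families 3 among 21. The median log2 fold change was 0.78 for the secreted and −0.01 for the membrane families, and 0.00 over all genes. Of the 43 members, 27 had a log2 fold change above 0, beside 6081 of all 12061 genes. Of the 43 members, 32 had a mean normalized value of at least 10, and 10 of the 11 raised genes were among them. The other, *grl-7*, rested on 2 EV reads and 17 knockdown reads and was listed mainly through its knockdown libraries. Of the 14 secreted members with a mean of at least 10, 7 rose.

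At an unadjusted p below 0.05, 17 wild-type members were higher and 2 lower, against 14.5% and 13.2% of all genes. The 2 treatment groups did not overlap, with the knockdown above EV, for 14 members (15.8% of all genes), and for 0 members with the knockdown below (also 15.8% of all genes). edgeR's quasi-likelihood test called the same 11 genes upward (8.23% of all genes) and 0 downward (5.59%). DESeq2 called 8 upward (7.88%) and 0 downward (6.76%); *grd-3* and *grl-16* did not pass it (adjusted p 0.0859 and 0.0874), and it gave no adjusted p for *grl-7*. With the replicate number as a block 12 members were called upward and 1 downward (limma, 8.81% and 7.44% of all genes), the additions being *ptr-10* upward (log2 fold change 1.29, adjusted p 0.0214) and *ptr-21* downward (−0.40, adjusted p 0.0306). Leaving out EV replicate 1 or EV replicate 2 left 7 members called upward (5.98% and 5.25% of all genes), and leaving out *anc-1* RNAi replicate 1 left 5 (5.26% of all genes), which were *grd-5*, *grd-10*, *grl-4*, *wrt-10* and *ptr-4*. These 5 genes were called in each of the 6 omissions. Without the variance trend in limma, 4 members were called upward (2.73% of all genes).

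In polyQ35-YFP worms, *grd-10* was the member that passed the test, and it rose there as well. Of the 44 listed members, 1 was called upward and 0 downward (limma, against 0.772% and 1.47% of all genes). The median log2 fold change of the members was 0.29, beside 0.03 over all genes. It was 0.39 for the secreted and 0.19 for the membrane families. Of the 44 members, 31 had a value above 0, beside 6568 of all 12173 genes. At an unadjusted p below 0.05, 6 members were higher and 1 lower (7.44% and 8.08% of all genes). The treatment groups did not overlap for 2 members, *grd-10* and *grl-21*, both with the knockdown above EV (3.39% of all genes), and for 0 with the knockdown below (5.94%). edgeR called 1 member upward (0.657% of all genes) and 0 downward (1.39%), and DESeq2 called *grd-10* and *grd-13*, 2 members, upward (1.89%) and 0 downward (3.70%).

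With the replicate number as a block, 5 members were called upward in polyQ35-YFP worms, *grd-10*, *grd-13*, *grl-4*, *grl-20* and *ptr-4*, and 1 downward, *wrt-10*. Over all genes the block gave 3.83% upward and 4.30% downward. Without replicate 4 of both groups, a choice made after the values were seen, *grd-10*, *grd-13*, *grl-16* and *ptr-4* were called upward and *wrt-10* downward, beside 2.67% and 3.80% of all genes under the same omission. The table of each strain was normalized separately, so levels are not compared between strains.

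**Figure D1:**
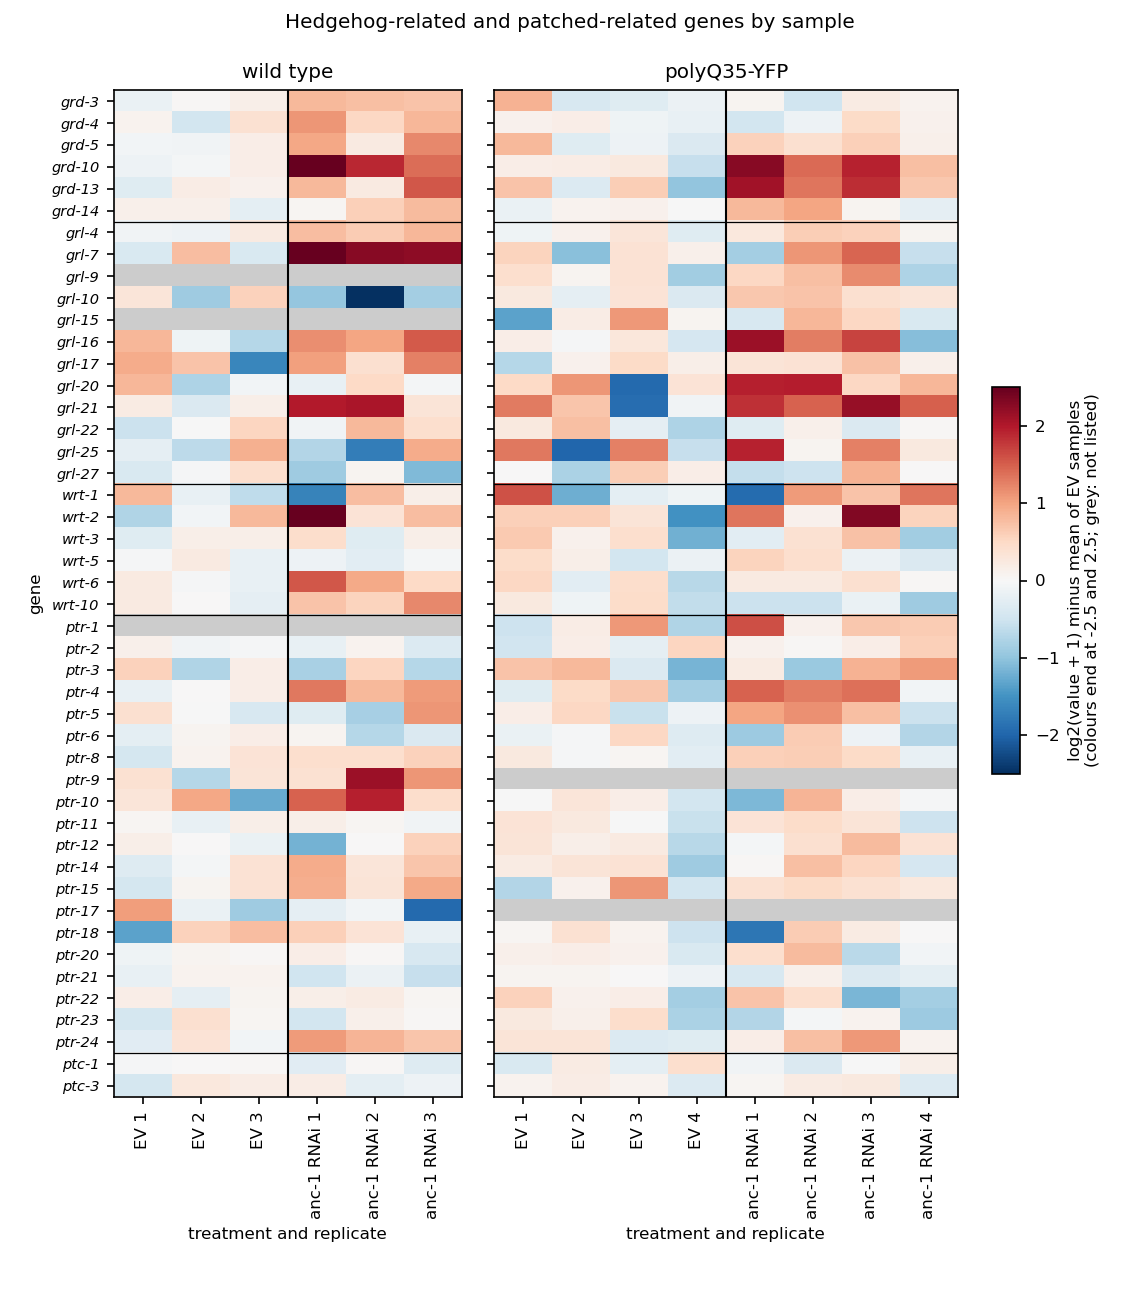
Each row is 1 member and each column 1 library; colour gives log2(normalized value + 1) minus the mean of that strain's EV libraries, ending at −2.5 and 2.5, and grey marks members not listed in that strain. The *grd* rows are red in the wild-type knockdown columns, the *ptc* rows stay pale, and the column of polyQ35-YFP EV replicate 4 is blue in most rows, being the lowest EV library for 28 of 44 members.

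Among the secreted proteins, the groundhog genes were represented by 6 members in wild-type worms. Of these, 4 of 6 rose (against 7.50% of all genes), 6 of 6 had a positive log2 fold change and the median was 0.81. These genes encode small secreted proteins with a cysteine-rich Ground domain and no Hog domain in most cases. Among the groundhog genes, *grd-10* had the largest log2 fold change in both strains. It lies on chromosome IV at 3441091 to 3441788 (WBcel235, plus strand) in a run of groundhog genes, 634 bases after the end of *grd-3* (3439655 to 3440456), which itself follows *grd-13* (3438312 to 3439502) after 152 bases. *grd-10* measured 25.2, 26.7 and 31 normalized reads in the wild-type EV libraries and 159, 103.9 and 74 after *anc-1* RNAi. All knockdown libraries were above all EV libraries, with a log2 fold change of 1.92 (SE 0.26, limma adjusted p 7e-05), which is 3.78-fold. In polyQ35-YFP worms *grd-10* measured 42.9, 43.3, 45.4 and 25.1 in EV and 188, 103.7, 147 and 64.7 after knockdown. The groups were again separate, with a log2 fold change of 1.59 (SE 0.31, adjusted p 0.0182). That call was lost when *anc-1* RNAi replicate 1, 2 or 3 was left out (adjusted p 0.0742, 0.0540 and 0.0713), when values were rescaled to the library total (0.0578) and without the variance trend (0.0918), while the log2 fold change stayed between 1.36 and 1.87 in the 8 omissions.

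The neighbours of *grd-10* in this run, *grd-3* and *grd-13*, did not pass the test of a difference in response between the strains (limma adjusted p 0.999 for both). *grd-3* measured 26.4, 30.3 and 33.1 in wild-type EV worms and 53.4, 50.6 and 49.8 after knockdown. The 2 groups were separate and *grd-3* rose by 0.76 (SE 0.24, limma adjusted p 0.0403), a call lost in each of the 6 omissions of a library (adjusted p from 0.0540 to 0.114). In polyQ35-YFP worms *grd-3* measured 85.8, 35.1, 37.6 and 41.9 in EV and 48.9, 32.6, 54 and 49.5 after knockdown, so the groups overlapped (log2 fold change −0.04, SE 0.30, adjusted p 0.966). *grd-13* measured 12.6, 18.2 and 17.1 against 28.4, 18.6 and 48.5 in wild-type worms, separate groups with a log2 fold change of 0.87 that did not pass the test (limma adjusted p 0.116), but did without *anc-1* RNAi replicate 2 (1.18, adjusted p 0.0442). In polyQ35-YFP worms *grd-13* measured 32.5, 15, 29.9 and 9.22 in EV and 85.5, 50.1, 72.4 and 31.4 after knockdown. There only the highest EV library and the lowest knockdown library overlapped, and the log2 fold change was 1.49 (SE 0.40, limma adjusted p 0.0749, and 0.00139 with the replicate block).

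*grd-4* and *grd-14* form another pair of neighbours, on the X chromosome at 8501339 to 8502282 and 8499664 to 8501037, 301 bases apart on the plus strand. *grd-4* measured 64.2, 43.6 and 79.1 in wild-type EV worms and 131, 87 and 108 after knockdown. It rose by 0.81 (SE 0.23, limma adjusted p 0.0246) without overlap, a call lost on omitting EV replicate 2 or knockdown replicate 1 or 3 (adjusted p 0.141, 0.112 and 0.0644). In polyQ35-YFP worms *grd-4* measured 69.6, 72.1, 59.8 and 56.2 against 46.1, 58.3, 89.5 and 69.5, overlapping groups with a log2 fold change of 0.00 (SE 0.23, adjusted p 0.997). *grd-14* did not pass in either strain, with log2 fold changes of 0.48 and 0.41.

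The last groundhog gene, *grd-5* on chromosome V, measured 562, 558 and 661 in wild-type EV worms and 1164, 693 and 1371 after knockdown. All knockdown libraries were higher, and *grd-5* rose by 0.80 (SE 0.18, limma adjusted p 0.00532). In polyQ35-YFP worms it measured 1237, 569, 643 and 549 in EV and 1048, 928, 1066 and 766 after knockdown. There EV replicate 1 was above every knockdown library while the other 3 EV libraries were below all of them, and the log2 fold change was 0.42 (SE 0.23, adjusted p 0.405). Without EV replicate 1 it was 0.69 (limma adjusted p 0.0375).

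The ground-like genes encode secreted proteins with a variant of the Ground domain, and 10 of them were listed in wild-type worms. There 3 rose (against 7.50% of all genes) and the median log2 fold change was 0.57. Of the 4 with a mean normalized value of at least 10, 2 rose, beside 859 of all 9430 genes with such a mean. *grl-4*, on chromosome IV, measured 327, 318 and 407 in wild-type EV worms and 597, 545 and 618 after knockdown. The groups did not overlap and *grl-4* rose by 0.75 (SE 0.13, limma adjusted p 6.01e-04). In polyQ35-YFP worms *grl-4* measured 552, 638, 735 and 481 in EV and 717, 905, 891 and 625 after knockdown. The groups overlapped, with a log2 fold change of 0.38 (SE 0.17, limma adjusted p 0.287, and 0.0400 with the replicate block).

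*grl-7* was close to the limit of detection in wild-type EV worms, where it measured 0, 1.21 and 0, against 7.96, 5.33 and 5.10 after knockdown. These values came from 2 reads in the EV libraries together and 17 in the knockdown libraries, a depth-adjusted ratio of 10.5 with a 95% interval of 2.5 to 94 that covers counting error only. On the log2(value + 1) scale, which understates changes of genes this low, it rose by 2.43 (SE 0.67, limma adjusted p 0.0215). The call was lost on omitting EV replicate 1 or 3 or knockdown replicate 1 or 2 (adjusted p from 0.0509 to 0.0983), and *grl-7* was listed in the wild-type table mainly through its knockdown libraries. In polyQ35-YFP worms it measured 11.6, 3.13, 9.96 and 8.38 against 3.76, 17.5, 22.4 and 4.76. The groups overlapped there (log2 fold change 0.29, SE 0.56, adjusted p 0.861).

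*grl-16* measured 20.6, 10.3 and 6.42 in wild-type EV worms and 26.1, 23.1 and 34.5 after knockdown. It rose by 1.225 (SE 0.39, limma adjusted p 0.0439) without overlap, a call kept without EV replicate 1 (adjusted p 0.0120) and lost in the other 5 omissions (adjusted p from 0.0659 to 0.159). In polyQ35-YFP worms *grl-16* measured 8.11, 6.90, 8.85 and 5.03 in EV and 34.8, 18.6, 25 and 2.86 after knockdown. Replicate 4 was the lowest of all 8 libraries and the other 3 knockdown libraries were above every EV library. The log2 fold change was 1.01 (SE 0.57, limma adjusted p 0.435), and 1.70 without *anc-1* RNAi replicate 4 (adjusted p 0.0385).

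*grl-21*, which together with *ptr-24* has been placed in a pathway of lipid storage that includes the nuclear receptor *nhr-25*, was with *grd-10* the member whose treatment groups were separate in both strains (1.92% of the shared genes had this pattern upward). It measured 2.29, 1.21 and 2.14 in wild-type EV worms and 10.2, 10.7 and 2.55 after knockdown. The log2 fold change was 1.45 (SE 0.61, limma adjusted p 0.128), and 2.01 without *anc-1* RNAi replicate 3 (adjusted p 0.0385). In polyQ35-YFP worms *grl-21* measured 8.11, 5.02, 0 and 2.51 against 12.2, 9.32, 15.8 and 9.52, a log2 fold change of 1.74 (SE 0.59, adjusted p 0.159). Counts of this gene were low in both strains, with 6 and 23 reads in the wild-type EV and knockdown libraries together and 18 and 43 in polyQ35-YFP worms.

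The other ground-like genes did not pass the test in either strain. In wild-type worms *grl-10* had the lowest value of all members, −1.49 (SE 0.68, limma adjusted p 0.167), from 18 reads in EV and 4 after knockdown, and in polyQ35-YFP worms it was at 0.52. *grl-20* was at 0.09 in wild-type worms and 1.31 in polyQ35-YFP worms, where the replicate block called it upward (limma adjusted p 0.30 without and 0.0489 with the block). *grl-10* overlaps the ribosomal protein gene *rpl-39* on the opposite strand and *grl-20* the globin gene *glb-7*. Whether reads were counted by strand is not given in the sources used here. It is therefore not known whether reads of the overlapping stretches were kept apart.

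**Figure D2:**
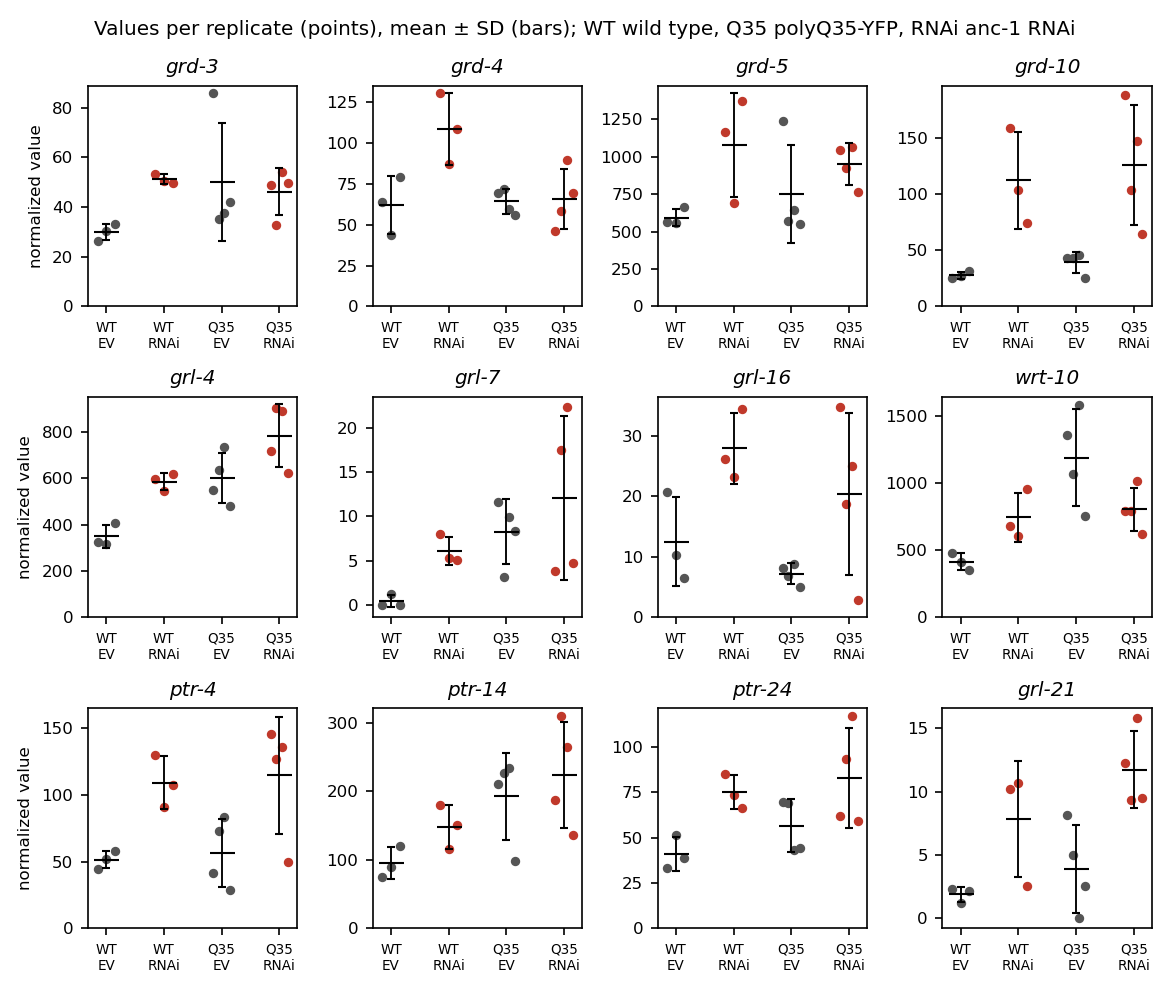
Normalized reads (linear axes, read count divided by the library's size factor) of 12 named members in every library; points are replicates and bars the mean ± SD of wild-type (n = 3) and polyQ35-YFP (n = 4) worms. *grd-10* and *grl-21* are separate between treatments in both strains. For *grl-21* in wild-type worms the nearest libraries of both treatments held 2 reads each and differ only by scaling. *wrt-10* is higher after knockdown in wild-type worms (606 to 952 against 350 to 482) but mostly lower in polyQ35-YFP worms (621 to 1014 against 752 to 1577).

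The warthog genes encode secreted proteins with an amino-terminal Wart domain, and several also carry the self-cutting Hog domain. Of the 6 listed, *wrt-10* rose in wild-type worms, and it was also the member for which the responses of the strains lay farthest apart by their test. It lies on chromosome II at 7533300 to 7534514 on the minus strand, with its end 52 bases from that of *wrt-1* (7531155 to 7533247, plus strand). *wrt-10* measured 482, 413 and 350 in wild-type EV worms and 680, 606 and 952 after knockdown. The groups did not overlap and *wrt-10* rose by 0.83 (SE 0.16, limma adjusted p 0.00151). In polyQ35-YFP worms it measured 1359, 1066, 1577 and 752 in EV and 789, 790, 1014 and 621 after knockdown. EV replicate 4 was within the range of the knockdown libraries and the other 3 EV libraries were above all of them, giving a log2 fold change of −0.53 (SE 0.21, limma adjusted p 0.237). With the replicate block the polyQ35-YFP change passed the test (adjusted p 0.0102), as it did without EV replicate 4 (−0.73, adjusted p 0.0149).

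*wrt-2* had the largest mean change among the warthog genes over both strains. It measured 1.15, 2.42 and 5.35 in wild-type EV worms and 33, 3.55 and 5.10 after knockdown, where only replicate 1 was above the EV range. The log2 fold change was 1.45 (SE 0.69, limma adjusted p 0.183), and 0.55 without that library (adjusted p 0.691). In polyQ35-YFP worms *wrt-2* measured 6.96, 6.90, 5.53 and 0.838 against 12.2, 4.66, 25 and 6.66 (log2 fold change 1.08, SE 0.58, adjusted p 0.403). *wrt-2* overlaps *pccb-1* on the opposite strand. *wrt-1*, *wrt-3*, *wrt-5* and *wrt-6* did not pass in either strain, and for *wrt-6* the wild-type groups were separate, at 10.3, 8.49 and 7.48 against 27.3, 17.8 and 12.8 (log2 fold change 1.00, limma adjusted p 0.0960).

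The patched-related genes, whose products cross the membrane many times and carry a sterol-sensing domain, showed no shared direction in wild-type worms. Of 19 listed there, 3 rose (against 7.50% of all genes), 10 had a positive log2 fold change and the median was 0.04. The annotation deposited with the tables gave a role in the molting cycle to 22 of the 46 members, which were the *ptr* and *ptc* genes. *ptr-4*, on the X chromosome, acts in epidermal cells that shape the apical extracellular matrix. It measured 44.7, 51.5 and 57.7 in wild-type EV worms and 130, 90.6 and 107 after knockdown. All knockdown libraries were higher, and *ptr-4* rose by 1.07 (SE 0.20, limma adjusted p 0.0017), a 2.09-fold change. In polyQ35-YFP worms it measured 41.7, 72.7, 83 and 28.5 in EV and 146, 127, 136 and 49.5 after knockdown. Replicate 4 was the lowest of both groups there, and the other 3 knockdown libraries were above every EV library. The log2 fold change was 1.01 (SE 0.38, limma adjusted p 0.199), with an adjusted p of 0.0087 with the replicate block and 0.0145 without replicate 4 of both groups.

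*ptr-24*, also on the X chromosome, measured 33.3, 51.5 and 38.5 in wild-type EV worms and 85.2, 73.7 and 66.4 after knockdown. It rose by 0.87 (SE 0.23, limma adjusted p 0.0158) without overlap, a call lost on omitting replicate 1 of either treatment (adjusted p 0.0660 for EV and 0.0739 for *anc-1* RNAi). In polyQ35-YFP worms *ptr-24* measured 69.6, 69.0, 43.2 and 44.4 against 62.0, 93.2, 117 and 59.0, overlapping groups with a log2 fold change of 0.52 (SE 0.27, adjusted p 0.376). *ptr-14*, on chromosome IV, measured 74.6, 90.3 and 121 in wild-type EV worms and 180, 115.4 and 151 after knockdown. Its groups overlapped, and it rose by 0.64 (SE 0.21, limma adjusted p 0.0467), a call kept on omitting EV replicate 3 or knockdown replicate 2 (lowest adjusted p 0.0188) and lost in the other 4 omissions (highest adjusted p 0.193) and on rescaling to the library total (0.0546). In polyQ35-YFP worms *ptr-14* measured 211, 228, 234.7 and 98.9 against 187, 310, 265 and 137, again overlapping (log2 fold change 0.23, SE 0.29, adjusted p 0.781).

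The remaining patched-related genes did not pass the test in either strain. Their log2 fold changes ran from −0.74 (*ptr-17*) to 1.29 (*ptr-10*, whose reporter marks sheath glia) in wild-type worms and from −0.40 (*ptr-23*) to 0.76 (*ptr-1*) in polyQ35-YFP worms. *ptr-10* measured 11.5, 18.8 and 3.21 in wild-type EV worms and 27.3, 38.2 and 12.8 after knockdown, overlapping groups. It was called upward with the replicate block and without *anc-1* RNAi replicate 3 (limma adjusted p 0.0482). *ptr-21* measured 381, 460 and 459 in wild-type EV worms and 306, 390 and 290 after knockdown, and was called downward with the block, without EV replicate 1 (adjusted p 0.0472) and without *anc-1* RNAi replicate 2 (0.0210). *ptr-9*, listed in wild-type worms only and mainly through its knockdown libraries, rested on 2 reads in EV and 10 after knockdown (log2 fold change 1.21, limma adjusted p 0.321). *ptr-8*, *ptr-10*, *ptr-15*, *ptr-18* and *grl-15* also overlap a gene on the opposite strand.

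The patched genes themselves encode the closest worm relatives of the Hedgehog receptor, and neither passed the test. *ptc-1*, needed for the division of germ cells that share cytoplasm, measured 3596, 3712 and 3758 in wild-type EV worms and 3045, 3773 and 2935 after knockdown. The groups overlapped because of replicate 2, with a log2 fold change of −0.19 (SE 0.10, limma adjusted p 0.237), and without that library it was −0.30 (adjusted p 0.0475). In polyQ35-YFP worms *ptc-1* measured 3022, 4566, 3358 and 5259 against 3702, 3066, 3944 and 4363 (log2 fold change −0.08, SE 0.18, adjusted p 0.882). *ptc-3*, used in the epidermis, was at −0.06 (SE 0.18) in wild-type and 0.04 (SE 0.18) in polyQ35-YFP worms.

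**Figure D3:**
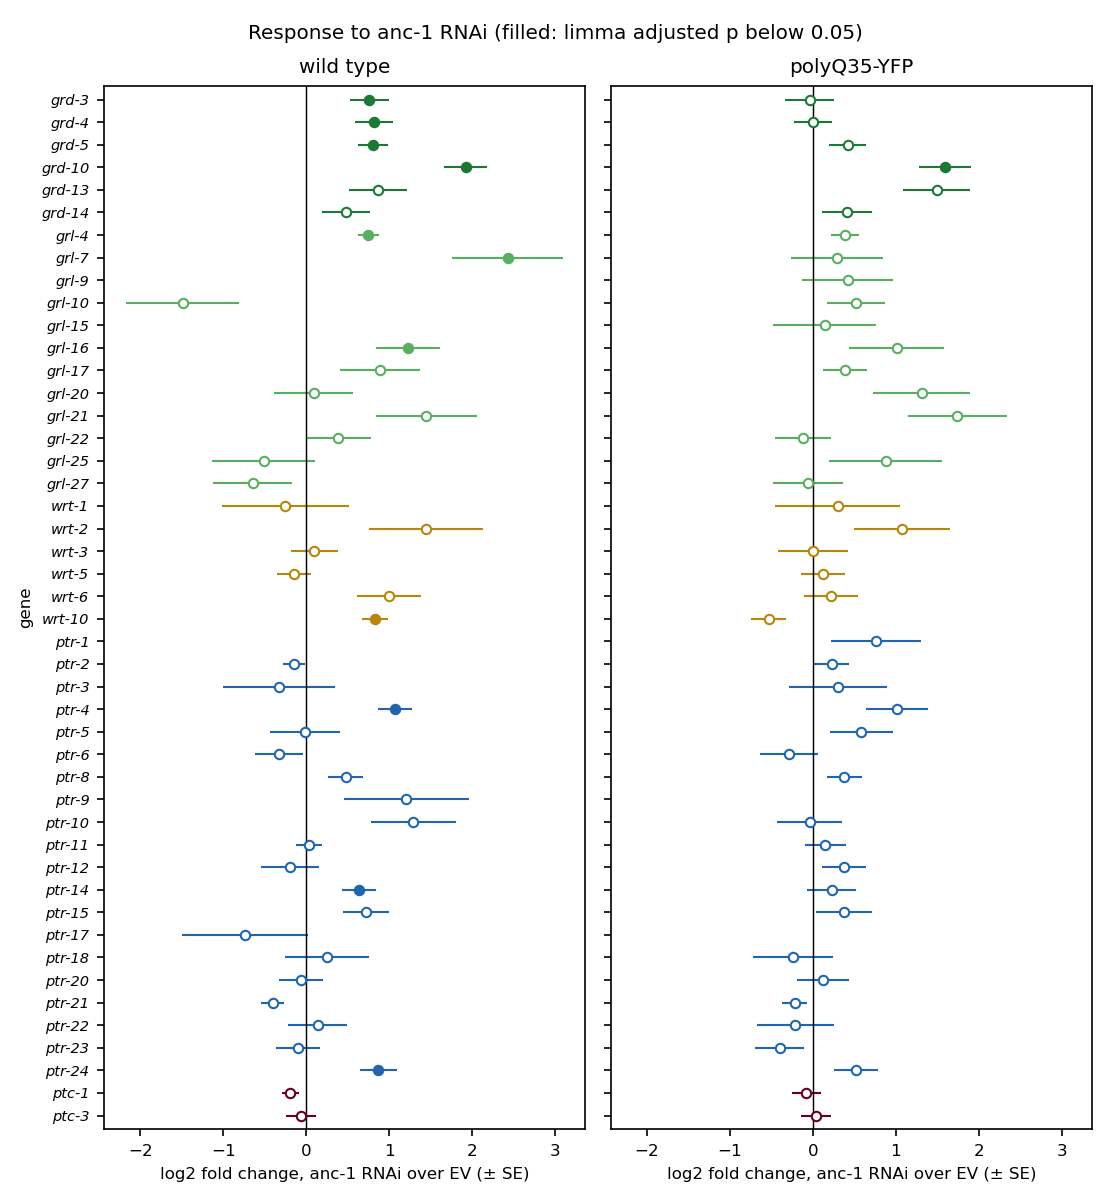
Log2 fold change of *anc-1* RNAi over EV for each listed member (± SE), coloured by family, with filled symbols for a limma adjusted p below 0.05. Wild-type worms have 11 filled symbols, all to the right of 0, and polyQ35-YFP worms have 1, *grd-10* at 1.59.

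A call in wild-type worms and not in polyQ35-YFP worms is not a difference between them, so the difference in response was tested itself over the 11751 genes of both tables. None of the 41 shared members passed (limma, 0 called, beside 0.00851% of all genes), and edgeR also called 0. At an unadjusted p below 0.05 there were 4 members, *grd-4*, *grl-7*, *grl-10* and *wrt-10* (3.46% of all genes). For *wrt-10* the response of polyQ35-YFP worms minus that of wild-type worms was −1.36 (SE 0.31, unadjusted p 3.32e-04, limma adjusted p 0.726, edgeR adjusted p 0.467). It passed with the replicate block (limma adjusted p 0.0169), without polyQ35-YFP EV replicate 4 (0.0235) and without replicate 4 of both polyQ35-YFP groups (0.0314). The share of all genes that passed in these fits was not counted. Over the 14 omissions of 1 library the difference ran from −1.56 to −1.17. For *grd-4* it was −0.82 (SE 0.35), for *grl-7* −2.14 (SE 0.83) and for *grl-10* 2.01 (SE 0.70), each with an adjusted p of 0.999. For *grd-10*, raised in both strains, the difference was −0.33 (adjusted p 0.999).

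Of other genes around these families, a list was taken of Hog-domain, Dispatched-like, Patched-like, sterol-transport and acyltransferase genes together with *tra-1*, the worm homologue of the GLI transcription factors that act at the end of the Hedgehog pathway in other animals. Of 9 listed in wild-type worms 2 rose and 0 fell (limma, against 7.50% and 6.13% of all genes), with a median log2 fold change of 0.10. Of 10 in polyQ35-YFP worms 0 passed in either direction (0.772% and 1.47% of all genes), with 0 at an unadjusted p below 0.05. *daf-6*, a patched-related gene that shapes the lumen of glial channels, measured 9.18, 1.82 and 1.07 in wild-type EV worms and 31.8, 20.4 and 17.9 after knockdown. The groups were separate and it rose by 2.60 (SE 0.54, limma adjusted p 0.00322). In polyQ35-YFP worms *daf-6* measured 11.6, 19.4, 19.9 and 10.1 against 35.7, 38.5, 19.7 and 9.52, overlapping groups with a log2 fold change of 0.60 (SE 0.42, adjusted p 0.557).

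*hhat-2*, named for the acyltransferase that adds lipid to Hedgehog in other animals, measured 5.74, 11.5 and 10.7 in wild-type EV worms and 21.6, 17.8 and 39.6 after knockdown. It rose by 1.37 (SE 0.39, limma adjusted p 0.0263) without overlap. In polyQ35-YFP worms its log2 fold change was 0.60 (SE 0.41, adjusted p 0.542). *tra-1* was at 0.10 and −0.12 in the 2 strains, and *che-14*, related to the Dispatched protein that releases Hedgehog, was at −0.31 and −0.26 (adjusted p 0.545 or more for these genes). The cholesterol-transport gene *ncr-1* was at −0.02 and 0.27, and *qua-1*, a Hog-domain gene needed for molting, was at 1.26 (adjusted p 0.0950) and 0.17.

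Other genes of the cuticle and apical matrix also included some that rose in wild-type worms. The shares of all genes that passed there were 7.50% upward and 6.13% downward (limma). Of 24 listed genes of the apical matrix and of molting 9 rose and 0 fell (median 0.70). Among those that rose were *noah-1* (log2 fold change 0.74), *lpr-3* (0.92), *mlt-11* (0.98) and *lpr-5* (1.58), at a limma adjusted p of 0.0145 or below. Of 16 cuticle collagens 8 rose, among them *dpy-7* (0.81) and *dpy-2* (1.14), and 1 fell, the adult collagen *col-19* (−0.53), with a median of 0.91. The summed normalized value of the collagens ran from 2255 to 2486 in the wild-type EV libraries and from 3589 to 3975 after knockdown, and that of the apical matrix genes from 2365 to 2820 and from 3407 to 3721.

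In polyQ35-YFP worms 0.772% of all genes passed the test upward and 1.47% downward (limma). None of 23 apical matrix genes and none of 16 collagens passed in either direction. At an unadjusted p below 0.05, 2 and 1 were higher and 1 and 1 lower (7.44% and 8.08% of all genes). The medians of the apical matrix genes and the collagens were −0.08 and 0.13. Their sums overlapped between treatments, at 2536 to 6864 in EV and 2498 to 5124 after knockdown for the collagens. *nhr-25*, which is active in the epidermis, rose in wild-type worms by 1.32 (SE 0.15, limma adjusted p 1.34e-05), and in polyQ35-YFP worms it was at −0.73 (SE 0.27, adjusted p 0.194). Other epidermal regulators called in wild-type worms went both ways. *blmp-1* rose (1.11, limma adjusted p 0.00124), while *egl-18* (−1.14, adjusted p 4.7e-05) and *ztf-11* (−0.62, adjusted p 0.00595) fell.

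General epidermal genes were also counted. Of all genes, 7.50% rose and 6.13% fell in wild-type worms, and 0.772% and 1.47% in polyQ35-YFP worms (limma). Of 14 listed genes of epidermal structure 2 rose and 1 fell in wild-type worms (median 0.14), and of 11 epidermal regulators 2 rose and 2 fell (median −0.07). In polyQ35-YFP worms 0 of 14 structural genes passed (limma, with 2 higher and 2 lower at an unadjusted p below 0.05), and 2 of 12 regulators fell. Of 12 genes of glia and the excretory tube, a list that shares *daf-6* and *ptr-10* with the groups above, 2 rose and 1 fell in wild-type worms (median 0.57) and 1 fell in polyQ35-YFP worms.

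Markers of other cell types moved as well. The shares of all genes were again 7.50% upward and 6.13% downward in wild-type worms, and 0.772% and 1.47% in polyQ35-YFP worms. Of 11 listed genes transcribed in early embryos 6 fell and 0 rose in wild-type worms (median −0.95), where their summed value ran from 3778 to 4160 in EV and from 2245 to 2371 after knockdown. In polyQ35-YFP worms 6 of 11 also fell (median −1.15), with sums of 3655 to 4323 and 2449 to 2857. Genes of body wall muscle rose in 6 of 10 cases and fell in 0 in wild-type worms, where their sums ran from 15176 to 15595 and from 19950 to 24853. In polyQ35-YFP worms 3 of 10 rose and 0 fell. Among the 3 was *unc-54*, whose promoter also drives the polyQ35-YFP transgene. It measured 33918 to 44966 in polyQ35-YFP EV worms and 3179 to 3326 in wild-type EV worms, in tables normalized separately. Whether reads of the transgene were counted as *unc-54* was not tested. Intestinal genes rose in 6 of 12 cases in wild-type worms and 1 of 12 in polyQ35-YFP worms, and fell in 0 in either strain. Of 21 germline and oocyte genes 1 rose and 4 fell in wild-type worms, and 2 fell in polyQ35-YFP worms. The part of these shifts in the values of the Hedgehog-related and patched-related genes was not tested.

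**Figure D4:**
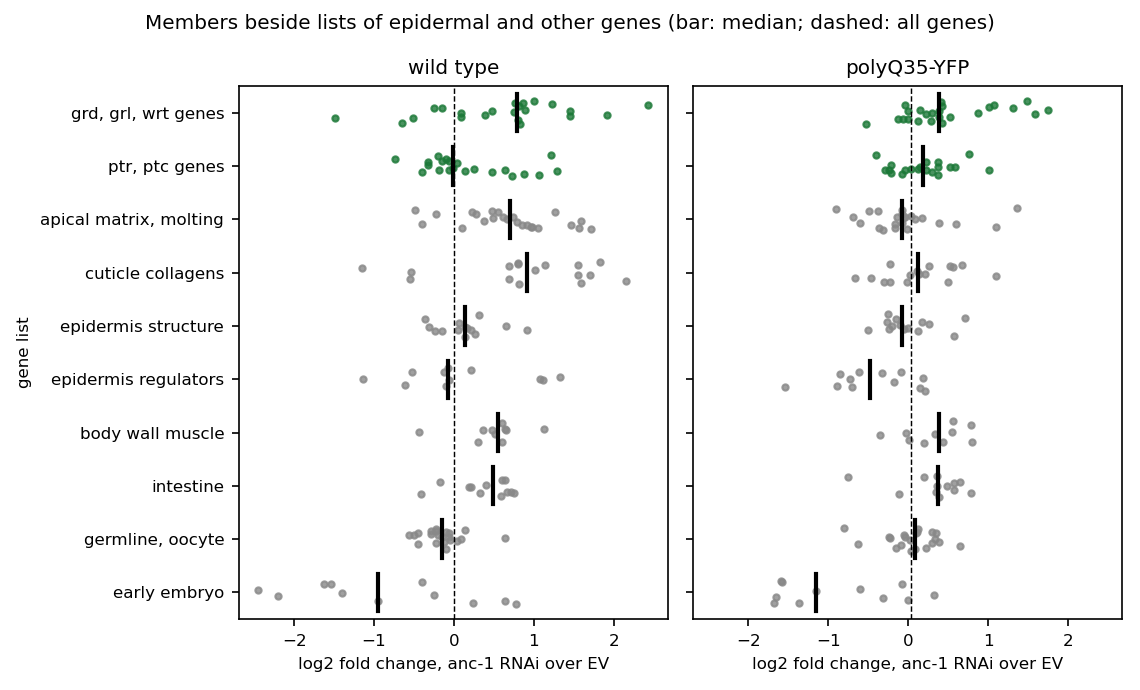
Each point is 1 gene's log2 fold change of *anc-1* RNAi over EV, by gene list, with a bar at the list median and a dashed line at the median of all genes. In wild-type worms the *grd*, *grl* and *wrt* genes (median 0.78), the apical matrix genes (0.70) and the collagens (0.91) lie mostly to the right and the early embryo genes (−0.95) mostly to the left; in polyQ35-YFP worms the first of these medians is 0.39 and the next are −0.08 and 0.13.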

How the data were processed

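Total RNA was sequenced by the CEL-Seq2 method, which reads the 3′ ends of polyadenylated transcripts. The authors trimmed reads with cutadapt 1.12, aligned them with TopHat2 2.1.1 to WBcel235, counted protein-coding genes with HTSeq 0.6.1 ignoring molecular identifiers, and discarded genes with a mean count under 2. The deposited values are a signal per gene and sample, the read count divided by a DESeq2 1.22.2 size factor, in a separate table per strain. The deposited tables also hold the authors' comparison (log2 fold change, its error, test statistic, p-value and adjusted p-value), which was not used.

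All values were whole multiples of what 1 read is worth in that library (100% within 0.01 reads), and reads were recovered from them. edgeR on these reads called 993 genes upward and 674 downward in wild-type worms and 80 and 169 in polyQ35-YFP worms. Each strain was tested with limma 3.58.1 in R 4.3.3 on log2(value + 1) with a variance trend over all listed genes, with Benjamini-Hochberg adjustment and a threshold of 0.05. The difference between strains was an interaction term over the shared genes. Alternatives were a replicate block, a pseudocount of 0.5, a mean value of at least 10, rescaling to the library total (CPM), tests of the recovered reads with DESeq2 1.42.0 or edgeR 4.0.16, limma without its trend, and leaving out each library. The main limma test of treatment and the edgeR test were run on simulated data with 200 changed genes. The test of the difference between strains and the other alternatives were not.

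The series design says that each repeat holds both conditions, so replicate numbers were taken as pairs in the replicate block. The main tests did not use these pairs. Deviations of same-numbered libraries correlated at 0.0491, 0.0806 and 0.0740 in wild-type worms (9430 genes) and at 0.215, 0.0949, 0.122 and 0.570 in polyQ35-YFP worms (9566 genes). Libraries of different numbers correlated from −0.108 to 0.0353 and from −0.469 to 0.271. In wild-type worms every same-numbered pair thus correlated more than any pair of different numbers. PolyQ35-YFP EV replicates 2 and 4 also correlated most with their own number (0.0949 and 0.570). EV replicates 1 and 3 of that strain correlated most with *anc-1* RNAi replicate 2 (0.271 and 0.146). The pairing was taken from the design text, and these values were not used to set it. Repeats are called independent by the study, and p-values measure the spread between these samples.

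Genes given with the value of every sample were those called in either strain, those whose groups were separate in both strains in the same direction, and the gene of largest mean absolute change in each family; *grd-13*, *ptr-10*, *ptr-21*, *wrt-6*, *daf-6* and *hhat-2* were added after their values were seen. Members and gene lists were chosen with earlier results of these data known. Gene names and positions are those of the deposited tables, and overlapping genes and the count of annotated family members are from Ensembl release 115 (WBcel235). Depth is the sum of recovered reads, and the intervals of read ratios (95%, exact binomial) cover counting error only, since amplified copies were counted.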

Additional observations from a re-analysis of the deposited data

Results flagged for a closer look

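In 3 of 28 groups of 4 polyQ35-YFP libraries, 1 library of a named gene lay far from the other 3; chance flags about 1 in 20 such groups. For *grd-3*, EV replicate 1 was at 85.8 while the other EV libraries were between 35.1 and 41.9. The same library was far above the others for *grd-5*, at 1237 against 549 to 643. For *grd-10*, EV replicate 4 was at 25.1, below the other EV libraries at 42.9 to 45.4. The 3 wild-type libraries of a group were too few for this check.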

How the results depend on the processing

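No result changed direction among those called under the alternatives tried. In wild-type worms the 11 members called upward became 4 without the variance trend and 5 to 9 as libraries were left out. The share of all genes called upward also fell without the trend, from 7.50% to 2.73%. The 0 members called downward became 1 with the replicate block and 0 to 2 as libraries were left out. In polyQ35-YFP worms the 1 member called upward became 2 with DESeq2, 5 with the replicate block and 0 in values rescaled to the library total. It became 0 without the variance trend and 0 to 3 as libraries were left out. Of all genes, 0.772% were called upward in the main test, 1.89% with DESeq2 and 3.83% with the block. The 0 members called downward became 1 with the block (4.30% of all genes) and 0 to 1 as libraries were left out. Leaving out replicate 4 of both polyQ35-YFP groups, a choice made after seeing the data, gave 4 upward and 1 downward (2.67% and 3.80% of all genes). For the difference between strains, the 0 members called downward became 1 with the block and 1 without replicate 4 of both polyQ35-YFP groups. They became 0 to 1 as libraries were left out. The share of all genes called for this difference under these alternatives was not counted. The cause of these changes was not tested, and the omissions also held fewer samples. The replicate block changed no other call than those printed here and in the results. Of the values of single genes and medians under alternatives, 609 stayed on their side of the threshold or within the spread of replicates. Another 39 lost a call, 14 gained one and 4 medians moved further, all being the median of the wild-type members. That median was 0.38 in the main test and ran from 0.26 to 0.51 as libraries were left out. Depth limited the low genes: 11 of 43 members in wild-type and 8 of 44 in polyQ35-YFP worms had a mean normalized value under 10.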
